A study of Mus musculus with 6 samples.

Results

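The replication-dependent histone genes are the 70 genes, of 48440 in the deposited tables, whose symbol begins with Hist1, Hist2, Hist3 or Hist4 followed by a histone class. Membership was set by symbol alone, but the set was chosen for study with earlier results of these data known. The values of separate entries of a gene were summed. The RNA came from small intestinal adenomas of 3 ApcMin PCdel mice (Defa4-Cre, Rosa26iDTA/WT) and 3 ApcMin littermates (Rosa26iDTA/WT), with 1 library per mouse and an age above 42 days. All 6 mice carried the ApcMin allele, which gives rise to intestinal adenomas, and the inducible diphtheria toxin A allele at Rosa26. In PCdel mice, Cre knocked into the *Defa4* locus switched on the toxin and so killed cells of the Paneth cell (PC) lineage, which make antimicrobial peptides at the base of the crypt. The comparison asks how adenomas in which this lineage was depleted differ from those in which it was not. The ApcMin libraries are named QC4, QC5 and QC6, and the ApcMin PCdel libraries QC3, QC8 and QC10.

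Core histones H2A, H2B, H3 and H4 form the particle around which DNA is wrapped, and the linker histone H1 binds the DNA between particles. Most of their supply in dividing cells comes from gene clusters that are switched on in S phase, when new DNA must be packaged. Their mRNAs end in a stem-loop bound by Slbp in place of a poly(A) tail, although some histone genes also give polyadenylated transcripts, mainly in cells that have stopped dividing.

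Values are FPKM, a level scaled for transcript length and for the size of the library, and no read counts were used. From the ratio of coverage to FPKM, between 5.41 and 5.88 gigabases of aligned sequence lay behind each library. The PC markers *Defa21*, *Defa22* and *Lyz1* were lower in every PCdel library than in every ApcMin library, from a sum of 1930 to 2915 FPKM in ApcMin adenomas to a sum of 1022 to 1193 FPKM in PCdel adenomas. With limma and Benjamini-Hochberg adjustment their adjusted p was between 0.309 and 0.979. All 4 epithelial markers (*Epcam*, *Krt8*, *Cdh1* and *Vil1*) were present in each library, with sums between 3115 and 4389 FPKM in overlapping groups. In such bulk tissue, fewer cells of a type and less RNA per cell cannot be told apart, and p-values measure only the spread between these mice.

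Of the 70 histone genes, 56 belong to the Hist1 cluster on chromosome 13, 10 to Hist2 on chromosome 3, 3 to Hist3 on chromosome 11 and 1 to Hist4 on chromosome 6. In GRCm38 the Hist1 genes without *Hist1h2al* lay between chr13:21715763-23934851, and *Hist1h2al* lay apart at chr13:51202688-51203065. The Hist2 genes lay within chr3:96219865-96270132 and the Hist3 genes within chr11:58948920-58956830. By class there were 6 H1, 20 H2A, 19 H2B, 12 H3 and 13 H4 genes. Among them, *Hist1h2aj* and *Hist1h2al* (H2A) and *Hist3h2bb-ps* (H2B) are annotated as pseudogenes in GENCODE M21. Of the H2A and H2B genes, 28 stood in 14 pairs that are transcribed away from each other, with 173 to 306 bases between their starts.

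The stem-loop is the sequence that sets these mRNAs apart. It was searched by its consensus on the sense strand of GENCODE M21 transcripts and was found in 44 of the 70 genes, against 89 of all 55450 genes searched (0.161%). The forms found are printed in lower case with the 4 bases of the loop in capitals, because they separate H4 from the other classes.

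H1, H2A, H2B and H3, 26 genes: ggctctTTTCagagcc
H1, H2B and H3, 6 genes: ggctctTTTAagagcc
H2A, 1 gene: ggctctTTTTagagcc
H4, 7 genes: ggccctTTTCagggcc
H4, 2 genes: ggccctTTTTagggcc
H4, 2 further genes: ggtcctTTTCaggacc

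Every stem-loop found outside H4 had the stem ggctct, and all 11 found in H4 genes had ggccct or ggtcct. In 22 of the 44 genes an annotated transcript ran on for at least 100 nucleotides past the stem-loop, and 11 of these 22 also held AATAAA or ATTAAA, the signals for poly(A) addition, in their last 40 nucleotides. In the other 22, which end within 99 nucleotides of the stem-loop, 2 did. These are M21 models, and several run longer than the gene spans in the deposited positions. Examples are *Hist1h2ac* (2482 nucleotides against 476 bases) and *Hist1h1d* (7425 against 744). Such run-on ends need not be in the models behind the FPKM. No match in the annotated transcripts was found for 26 genes, which says only that these letters are not in those models. The TruSeq RNA kit named in the study's methods usually selects poly(A) RNA, and how far this set the levels below was not tested.

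A search of RefSeq promoters (250 bases before to 50 after the start, GRCm38.p6) found entries for 62 of the 70 genes. CCAAT, on either strand, was found in the window of every H1, H2A, H2B and H3 gene with an entry (6, 18, 16 and 10 genes) and in 3 of 12 H4 genes, against 41.1% of all 27025 genes. The octamer ATTTGCAT, on either strand, was found in 7 of 18 H2A and 7 of 16 H2B genes, against 1.97% of all genes, and in none of the windows of H1, H3 and H4 genes. TATAAA, on either strand, was found in 35 of the 62 windows, against 15.7% of all genes. Each match describes letters and is no evidence of binding.

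Most of the FPKM listed for histone genes came from a few genes of the Hist1 cluster. These are shares of listed FPKM, and the part of poly(A) selection in them was not tested. *Hist1h2bc*, which encodes an H2B (chr13:23684199-23692488, + strand), made up 42.6% of the FPKM summed over all 70 genes, and with the linker histone gene *Hist1h1c* it made up 56.9%. The 10 most abundant genes held 80.1%. *Hist1h2bc* was listed at 138, 135 and 117 FPKM in the ApcMin libraries QC4, QC5 and QC6 and at 96.0, 117 and 159.5 FPKM in the PCdel libraries QC3, QC8 and QC10. The groups overlapped, and the lowest and the highest value both came from PCdel libraries. *Hist1h1c* (chr13:23738808-23740367, + strand) was listed at 44.99, 47.5 and 37.6 FPKM in ApcMin and at 33.9, 39.0 and 54.1 FPKM in PCdel libraries, with the same library lowest and the same highest.

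Only 5 genes had a mean of at least 10 FPKM. The other 3 were the H2B genes *Hist1h2bf*, *Hist1h2bh* and *Hist1h2bl*, with ranges of 11.5 to 18.4, 11.2 to 17.3 and 9.35 to 14.4 FPKM over the 6 libraries. Next in the order of means were *Hist2h2aa1*, described below, and the H2B gene *Hist1h2bg*, between 4.77 and 7.12 FPKM. The most abundant H4 gene, *Hist1h4i*, was listed between 3.89 and 7.03 FPKM, and the most abundant H3 gene, *Hist2h3c2*, between 2.32 and 2.84 FPKM. The other H2B genes among the 20 most abundant were *Hist1h2bj* (3.95 to 5.65 FPKM), *Hist1h2bk* (3.16 to 4.78 FPKM), *Hist1h2bb* (2.21 to 3.30 FPKM), *Hist1h2bp* (1.79 to 2.78 FPKM) and *Hist2h2be*. The H2A genes *Hist1h2ae*, *Hist1h2ao* and *Hist1h2ab* ranged from 2.77 to 3.995, from 2.93 to 4.08 and from 2.15 to 3.02 FPKM. The linker histone gene *Hist1h1e* (1.83 to 2.92 FPKM) and the H4 gene *Hist1h4b* (1.41 to 2.70 FPKM) were also among the 20, as was *Hist3h2a*. Median levels by class were 0.272 FPKM for H1, 0.693 for H2A, 2.29 for H2B, 0.400 for H3 and 0.807 for H4. A level per gene is uncertain here, since for 43 of the 70 genes more than 50% of the 31-base words (31-mers) of their transcripts also occur in another annotated gene. The words are those of M21 transcripts, so the share may be understated for genes with shorter deposited spans, such as *Hist1h2ac* (16.9%).

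Of the 70 genes, 32 had a mean of at least 1 FPKM and were tested: 2 of H1, 9 of H2A, 15 of H2B, 1 of H3 and 5 of H4. The 38 below this minimum had means from 0 to 0.923 FPKM. Among all 70 genes, 55 were above 0 in every library, 13 were listed at 0 in some, and *Hist1h2aa* and *Hist2h2aa2* were listed at 0 in all 6. Within the 14 head-to-head pairs, the H2B gene had the higher mean FPKM in 11, and in 9 it was higher in each of the 6 libraries. The exceptions by mean were *Hist1h2aj* over *Hist1h2bm*, *Hist1h2ao* over *Hist1h2bq* and *Hist3h2a* over *Hist3h2bb-ps*.

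**Figure D1:**
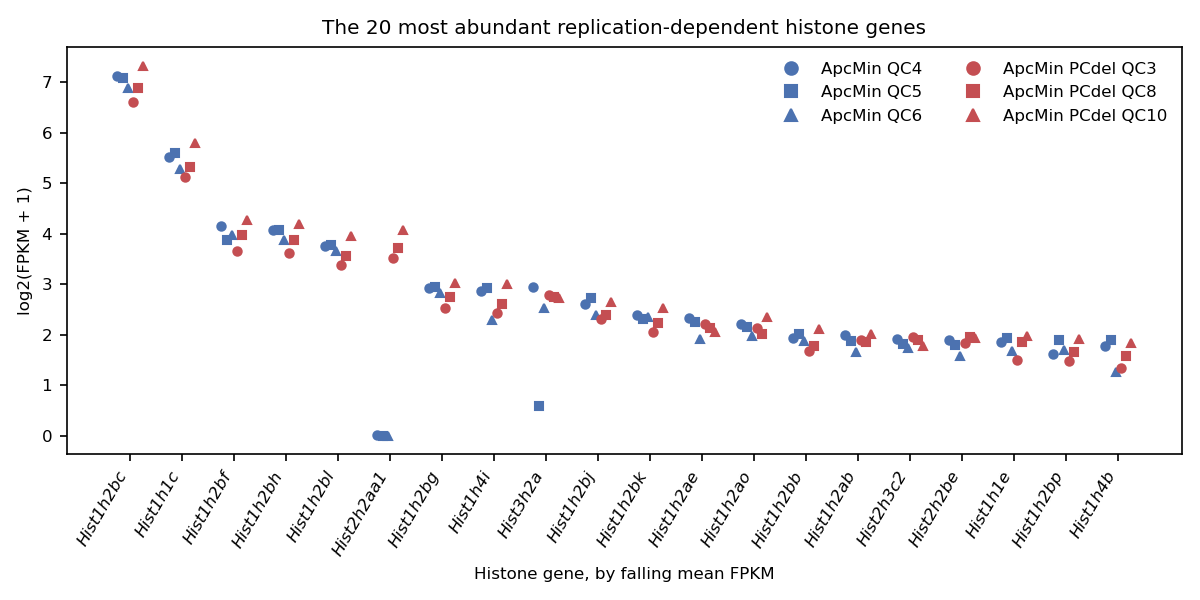
Level of the 20 histone genes with the highest mean, as log2(FPKM + 1) on the vertical axis, with 1 point per library (blue ApcMin, red ApcMin PCdel). *Hist1h2bc* and *Hist1h1c* stood above the rest, and the groups were fully apart only for *Hist2h2aa1*, listed at 10.5 to 15.9 FPKM in PCdel libraries and at 0 to 0.010 FPKM in ApcMin libraries.

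Compared between genotypes, 1 of the 32 tested histone genes passed the test, *Hist2h2aa1*, which was higher in ApcMin PCdel adenomas. It reached the minimum mean of 1 FPKM only through the PCdel libraries, with 12.8 FPKM there and 0.003 FPKM in ApcMin libraries. The other 31 did not pass an adjusted p of 0.05 in limma on log2(FPKM + 1). Over all 14240 genes tested, 2 passed (0.014%), 1 of them higher in PCdel adenomas (0.00702%). At an unadjusted p under 0.05 there were 2 histone genes, 1 higher and 1 lower, against 481 of all genes (3.38%), with 2.7% higher and 0.681% lower. The groups of libraries did not overlap in 1 of the 32 histone genes, which was higher, against 7.54% of all genes, with 6% higher and 1.54% lower. The median difference was -0.05 on the log2 scale over the 32 histone genes and 0.04 over all genes, where 63.1% were higher in PCdel adenomas. Among histone genes 11 were higher and 21 lower, a split that turned to 24 higher without library QC3, to 17 without QC4 and to 19 without QC5. With TPM 16 were higher.

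By class, 8 of 9 tested H2A genes and the 1 tested H3 gene were higher in PCdel adenomas on average, and 13 of 15 H2B genes, both H1 genes and all 5 H4 genes were lower. Of all genes tested, 63.1% were higher. Genes of a class are not separate observations, since a median of 80.8% of the 31-mers of H2A genes and 56.3% of those of H2B genes occur in other genes. Apart from *Hist2h2aa1*, *Hist3h2a*, *Hist1h2bq* and *Hist1h2br*, the differences of the tested histone genes lay between -0.20 and 0.16 on the log2 scale. That of *Hist1h2bc* was -0.10 (95% interval -0.56 to 0.37, limma adjusted p = 1.0 after Benjamini-Hochberg adjustment). For *Hist1h1c* it was -0.05 (95% interval -0.51 to 0.40, limma adjusted p = 1.0). Without library QC3 both turned positive, at 0.07 for *Hist1h2bc* and 0.09 for *Hist1h1c*, and *Hist1h1c* was at 0.02 without QC5 and at 0.01 with TPM. So the intervals leave room for a change of either sign in these genes.

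**Figure D2:**
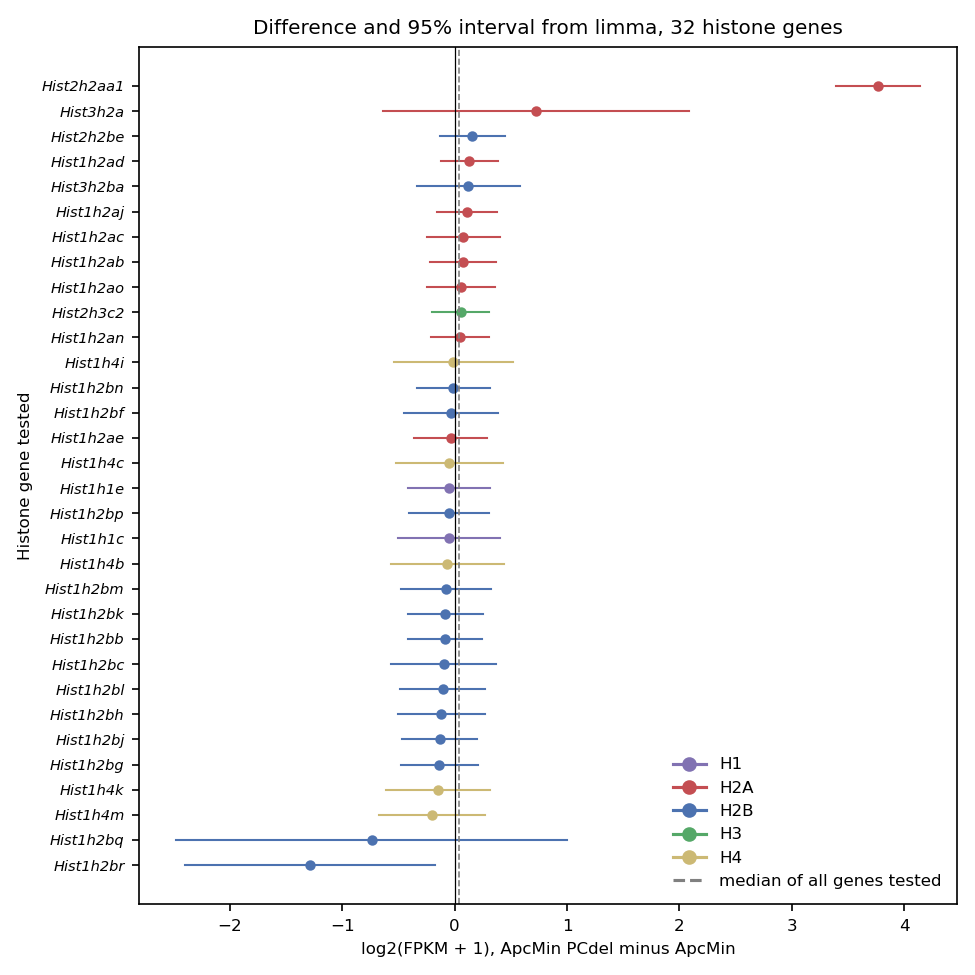
Difference in log2(FPKM + 1), ApcMin PCdel minus ApcMin, for the 32 tested histone genes, with points for the limma estimate, bars for its 95% interval and colours for the histone class. The dashed line marks the median of all genes tested (0.04), and the interval excluded 0 only for *Hist2h2aa1* (3.40 to 4.14) and *Hist1h2br* (-2.40 to -0.18).

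Summed over all 70 genes, histone FPKM was 322, 312 and 262 in the ApcMin libraries QC4, QC5 and QC6 and 241, 286 and 369 in the PCdel libraries QC3, QC8 and QC10. The means were 299 ± 32.2 and 299 ± 65.3 (SD, n = 3 each), a log2 ratio of 0.00. The PCdel libraries thus held both the lowest and the highest histone sum. A sum is given as a description, with no test.

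The H1 genes summed to 46.6 ± 5.72 FPKM in ApcMin and 45.4 ± 11.06 FPKM in PCdel adenomas (SD, n = 3 each), and 93.1% of this was *Hist1h1c*. The 4 H1 genes below the minimum include *Hist1h1t*, known as a testis form, which was at 0 to 0.082 FPKM. *Hist1h1a*, *Hist1h1b* and *Hist1h1d* were at most 0.273, 0.313 and 0.529 FPKM.

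For the H2B genes the sums were 205.8 ± 18.6 and 193.6 ± 45.9 FPKM. Without *Hist1h2bc*, the other Hist1 H2B genes summed to 76.6, 73.6 and 64.4 FPKM in ApcMin and to 51.1, 65.2 and 77.7 FPKM in PCdel libraries, in overlapping groups. The H4 genes summed to 15.95 ± 4.35 and 14.7 ± 4.31 FPKM and the H3 genes to 7.18 ± 2.13 and 6.87 ± 0.275 FPKM, again overlapping. In the H3 class, 11 of 12 genes were below the minimum, and 9 of these belong to Hist1.

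The H2A genes were the class whose sums did not overlap, at 27.5, 20.9 and 20.9 FPKM in ApcMin libraries and at 35.0, 36.7 and 42.6 FPKM in PCdel libraries. Without *Hist2h2aa1* these became 27.5, 20.9 and 20.9 against 24.5, 24.5 and 26.8 FPKM, which overlapped. The log2 ratio of the means went from 0.72 to 0.13.

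Of the clusters, Hist1 summed to 286.5 ± 30.9 FPKM in ApcMin and 271 ± 62.4 FPKM in PCdel adenomas (SD, n = 3 each). The Hist2 sums were 7.89, 6.26 and 5.17 FPKM in ApcMin libraries and 17.9, 19.2 and 22.9 FPKM in PCdel libraries, fully apart. With *Hist2h2aa1* left out they were 7.88, 6.26 and 5.17 against 7.35, 7.09 and 7.02 FPKM, and the log2 ratio went from 1.63 to 0.15. So *Hist2h2aa1* carried the difference in both the H2A class and the Hist2 cluster.

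**Figure D3:**
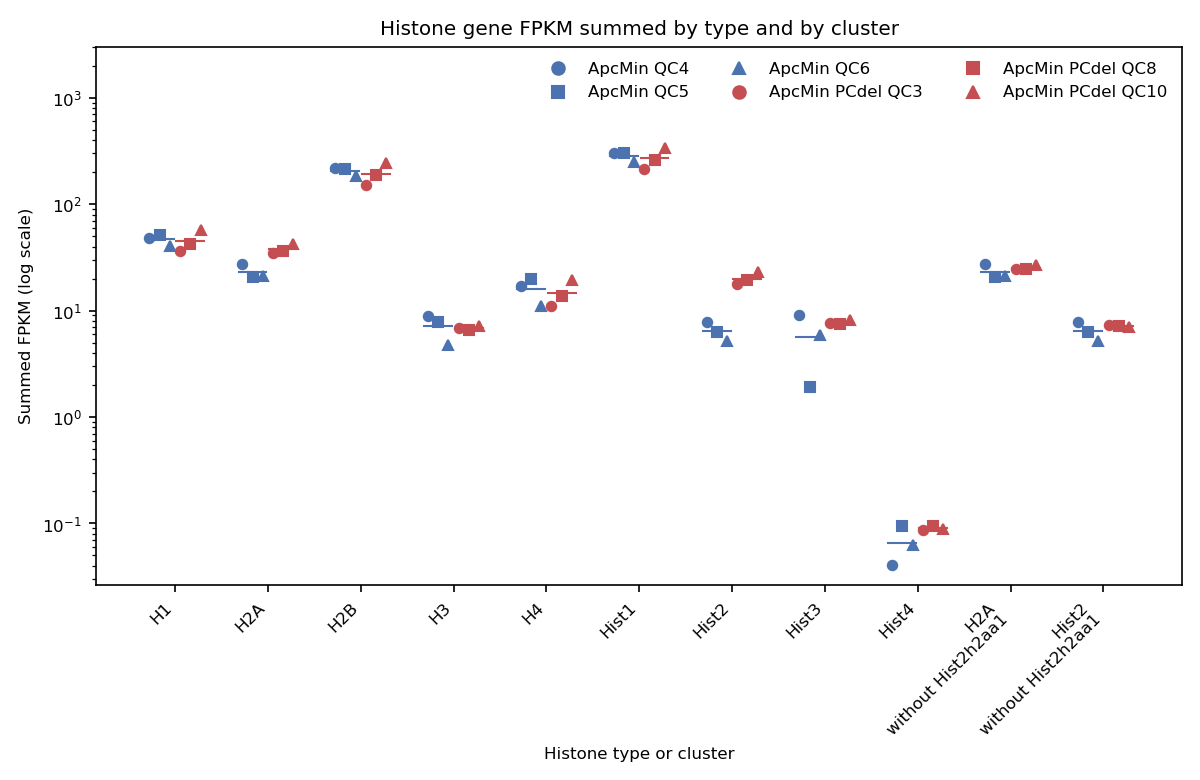
Summed FPKM of the histone genes by class (H1 to H4) and by cluster (Hist1 to Hist4) on a log axis, with 1 point per library and a line at each group mean (blue ApcMin, red ApcMin PCdel). The groups were apart for H2A and Hist2, and overlapped in both once *Hist2h2aa1* was left out (last 2 columns).

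*Hist2h2aa1* (ENSMUSG00000064220.6, chr3:96245497-96246082, + strand) encodes an H2A and has an annotated transcript of 586 nucleotides. It was listed at 10.5, 12.1 and 15.9 FPKM in the PCdel libraries QC3, QC8 and QC10, at 0.010 FPKM in the ApcMin library QC4 and at 0 in QC5 and QC6. In limma its difference was 3.77 on the scale of log2(FPKM + 1) (SE 0.16, 95% interval 3.40 to 4.14, adjusted p = 0.00132 after Benjamini-Hochberg adjustment). Permuting the libraries gave an exact two-sided p = 0.1, which with 3 libraries a group is as small as it can be. No fold is given, since 2 of the ApcMin libraries were listed at 0. In PCdel adenomas it had the highest mean FPKM of the 20 H2A genes among these histone genes. Variant genes outside the set were listed higher, such as *H2afz* (127.8 FPKM).

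Its nearest copy, *Hist2h2aa2* (chr3:96239749-96240276, - strand), was listed at 0 in all 6 libraries. The copies face away from each other, and their promoters share a stretch of 219 bases, printed in capitals in both windows to show how alike the copies are. The windows are from RefSeq (GRCm38.p6) at chr3:96245247-96245546 (+ strand) and chr3:96240325-96240624 (- strand).

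*Hist2h2aa1*: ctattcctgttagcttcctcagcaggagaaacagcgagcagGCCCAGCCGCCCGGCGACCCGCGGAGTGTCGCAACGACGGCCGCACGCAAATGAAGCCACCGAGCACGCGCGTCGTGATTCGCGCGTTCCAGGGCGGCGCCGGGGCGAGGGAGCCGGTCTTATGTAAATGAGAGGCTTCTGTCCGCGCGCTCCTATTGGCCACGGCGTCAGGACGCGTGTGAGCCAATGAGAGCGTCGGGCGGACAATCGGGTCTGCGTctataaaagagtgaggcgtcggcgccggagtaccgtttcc
*Hist2h2aa2*: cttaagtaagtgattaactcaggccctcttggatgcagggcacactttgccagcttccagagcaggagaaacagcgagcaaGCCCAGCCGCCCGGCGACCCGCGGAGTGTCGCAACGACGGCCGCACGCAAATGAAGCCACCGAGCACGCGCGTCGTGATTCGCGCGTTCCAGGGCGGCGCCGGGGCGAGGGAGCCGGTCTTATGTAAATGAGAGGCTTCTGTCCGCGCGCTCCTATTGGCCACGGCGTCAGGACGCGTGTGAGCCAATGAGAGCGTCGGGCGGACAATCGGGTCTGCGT

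Both windows held CCAAT at 2 places, counting both strands. TATAAA was found in the window of *Hist2h2aa1*, just past the shared stretch and past the listed start of the gene (chr3:96245497). The window of *Hist2h2aa2* ends with the stretch at chr3:96240325, short of the listed start of that gene (chr3:96240276, - strand). The bases that follow there were not read, so the windows cannot show whether the copies differ in TATAAA. The 3' ends were alike too, with the stem-loop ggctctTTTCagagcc and 35 nucleotides after it in each transcript.

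The transcript of *Hist2h2aa1* has no sequence of its own in the annotation. All of its 31-mers occur in Gm20633, which overlaps it on the opposite strand, 96.4% in Gm20632, 89.7% in Gm20634 and 89.6% in *Hist2h2aa2*. Gm20634 lies on the same strand, covers 529 of its 586 bases and also covers all of the H3 gene *Hist2h3c1* downstream. Gm20632 covers *Hist2h2aa2* on the opposite strand. Outside the locus the shared part was smaller, at 44.4% in *Hist1h2al*, 38.1% in *Hist2h2ac* and 20.9% in most H2A genes of Hist1.

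Neither of the closest relatives with a level above the minimum differed by the test. Gm20634 was listed at 4.54, 3.41 and 2.73 FPKM in ApcMin libraries and at 3.92, 2.21 and 2.11 FPKM in PCdel libraries, in overlapping groups (log2 difference -0.30, 95% interval -0.84 to 0.25, limma adjusted p = 1.0 after Benjamini-Hochberg adjustment). Gm20632 was listed at 3.61, 3.48 and 3.81 FPKM against 3.14, 3.68 and 4.64 FPKM (log2 difference 0.05, 95% interval -0.28 to 0.37, limma adjusted p = 1.0). Gm20633 was at 0.127 to 0.213 FPKM in all 6 libraries, below the minimum for the test. *Hist2h3c1* was listed at 1.15 FPKM in the ApcMin library QC4 and at 0 in QC5 and QC6, and at 0, 0.566 and 0.539 FPKM in the PCdel libraries QC3, QC8 and QC10. Its libraries at 0 thus lay in both groups, unlike those of *Hist2h2aa1*.

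Together with *Hist2h2aa2*, Gm20632, Gm20633 and Gm20634, the FPKM of *Hist2h2aa1* summed to 8.37, 7.02 and 6.68 in ApcMin libraries and to 17.7, 18.2 and 22.8 in PCdel libraries, a ratio of 2.66 between the means. FPKM is divided by transcript length, so a fragment counts for more in the 586 nucleotides of *Hist2h2aa1* than in the 2956 of Gm20634. Multiplied back by the M21 transcript lengths in kilobases (FPKM x kb), which may not be those behind the tables, the same 5 genes came to 22.8, 18.9 and 17.7 FPKM x kb in ApcMin libraries and to 25.8, 22.9 and 27.2 in PCdel libraries. The ratio of the means was then 1.28, and the groups still did not overlap, though the values of QC8 and QC4 were close. With *Hist2h3c1* added, the values were 24.9, 18.9 and 17.7 against 25.8, 24.0 and 28.2, and the groups overlapped.

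Without *Hist2h2aa1*, its 4 closest relatives came to 22.8, 18.9 and 17.7 FPKM x kb in ApcMin and to 19.6, 15.8 and 17.9 in PCdel libraries. Over all 30 genes holding 10% or more of its 31-mers, with the variant gene *H2afx* as the most abundant, the lengths gave 85.6 ± 13.1 and 90.9 ± 7.41 FPKM x kb (SD, n = 3 each), in overlapping groups. For some of these genes the M21 length exceeds the span in the deposited positions, as for *Hist1h2ac* (2482 nucleotides against 476 bases). Their weights are thus larger than the deposited positions allow. How the program behind the tables divided fragments between these genes is not given in the sources used here, and its part in the values of *Hist2h2aa1* was not tested.

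**Figure D4:**
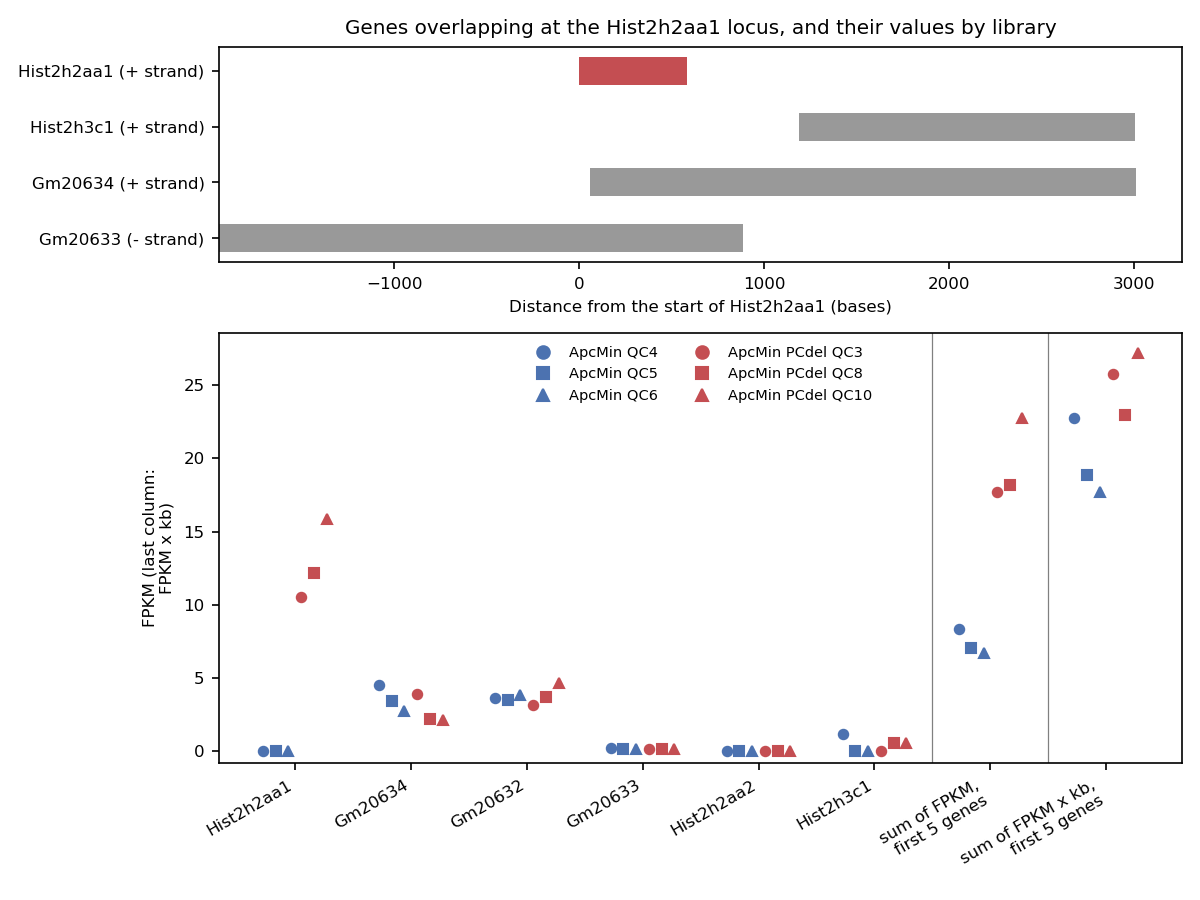
Top, genes at the *Hist2h2aa1* locus by distance in bases from its start. Bottom, FPKM per library (blue ApcMin, red ApcMin PCdel) of *Hist2h2aa1*, its closest relatives and *Hist2h3c1*, then the FPKM sum of the first 5 genes (ratio of means 2.66) and their sum weighted by transcript length in FPKM x kb (ratio of means 1.28).

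The other H2A genes of Hist2 were low. *Hist2h2ac* was listed between 0.721 and 1.12 FPKM and *Hist2h2ab* at 0.066 and 0.169 FPKM in QC4 and QC5 and at 0 elsewhere. *Hist2h2be*, an H2B gene with 2.82% of its 31-mers in other genes, was listed at 2.71, 2.48 and 1.97 FPKM in ApcMin and at 2.58, 2.89 and 2.82 FPKM in PCdel libraries (log2 difference 0.16, limma adjusted p = 1.0 after Benjamini-Hochberg adjustment). The H3 gene *Hist2h3c2* (chr3:96238108-96239127, - strand) had a log2 difference of 0.05 (95% interval -0.20 to 0.31). *Hist2h3b* and *Hist2h2bb* were above 0 in QC3 only, at 0.983 and 0.163 FPKM, and all of their 31-mers occur in other genes. *Hist2h4* stayed between 0.058 and 0.129 FPKM.

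Hist3 and Hist4 added little. *Hist3h2a*, an H2A gene that lies within *Trim17* on the same strand, was listed at 6.70, 0.500 and 4.79 FPKM in ApcMin and at 5.84, 5.68 and 5.65 FPKM in PCdel libraries. QC5 lay far below the other 5 libraries, and the log2 difference of 0.73 (95% interval -0.64 to 2.09, limma adjusted p = 1.0 after Benjamini-Hochberg adjustment) became 0.01 without it. *Hist3h2ba* was listed between 1.02 and 2.09 FPKM, and *Hist3h2bb-ps*, annotated as a pseudogene by its name, between 0.064 and 0.506 FPKM. *Hist4h4* (chr6:136801553-136804415, - strand) was listed between 0.041 and 0.095 FPKM.

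Another pair of near copies showed values that switched between a level and 0. *Hist1h2br* (chr13:21833743-21837530, + strand) was listed at 3.77, 2.21 and 1.97 FPKM in ApcMin libraries, at 2.12 FPKM in the PCdel library QC8 and at 0 in QC3 and QC10. Its log2 difference was -1.29 (95% interval -2.40 to -0.18, unadjusted p = 0.0290, adjusted p = 1.0 by limma with Benjamini-Hochberg adjustment), and the groups overlapped. *Hist1h2bq* (chr13:21806412-21810199, - strand), which holds 89.5% of its 31-mers, was listed at 3.06, 3.23 and 0 FPKM in ApcMin and at 0, 2.72 and 0 FPKM in PCdel libraries. Both were thus at 0 in QC3 and QC10. A listing at 0 in 1 library beside at least 1 FPKM in another was found for 4 of 39 histone genes that reach 1 FPKM in any library, namely *Hist2h2aa1*, *Hist1h2br*, *Hist1h2bq* and *Hist2h3c1*, against 1.2% of 15127 genes.

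Below the minimum of 1 FPKM, the groups did not overlap for 3 of the 36 histone genes above 0 in some library, against 6.7% of 12968 such genes over all, and none of these entered the test. *Hist1h2ag* was at 0.391, 0.538 and 0.298 FPKM in ApcMin and at 0.151, 0.233 and 0.267 FPKM in PCdel libraries. *Hist1h2ah* ran the other way, at 0.039, 0.067 and 0.020 against 0.109, 0.211 and 0.111 FPKM. *Hist1h4a* was at 0.1104, 0.1072 and 0.1111 against 0.1067, 0 and 0.0716 FPKM.

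Many histone genes had their extremes in the same libraries. Of the 32 tested genes, 21 had their highest value in QC10, which held the highest value of 16.6% of all genes tested. The lowest value lay in QC3 for 14 histone genes and for 8.75% of all genes, and in QC6 for 14 histone genes and for 46.1% of all genes. The summed epithelial markers were also highest in QC10 (4389 FPKM) and lowest in QC6 and QC3 (3115 and 3321 FPKM), and their part in the histone values was not tested. Among the 15 tested H2B genes, 10 were lowest in QC3 and 10 highest in QC10, both PCdel libraries. A gene at 0 in several libraries was counted once, for the first in the order QC4, QC5, QC6, QC3, QC8, QC10. *Hist1h2br*, at 0 in QC3 and QC10, was thus counted for QC3, and *Hist1h2bq*, at 0 in QC6, QC3 and QC10, for QC6. The ratio to *Hist1h2bc* in the same library varied least for *Hist1h2bh*, *Hist1h2bl* and *Hist1h1c*, which are named here for that reason. As a percent of *Hist1h2bc*, they stayed between 10.8% and 11.7%, between 9.04% and 9.94%, and between 32.02% and 35.4%. Over 14 tested H2B genes the coefficient of variation of the ratio ran from 3.02% to 109.7%. The FPKM of *Hist1h2bc* itself had a coefficient of variation of 17.3%. *Hist1h1c* shared under 10% of its 31-mers with *Hist1h2bc*, and *Hist1h2bh* shared 13.1%, but *Hist1h2bl* shared 67.8%. The 13.1% is a share of an M21 transcript of 1679 nucleotides, while *Hist1h2bh* spans 388 bases in the deposited positions. So it may understate what the shorter gene shares. Counted from *Hist1h2bc*, 19.5% of its 31-mers occur in *Hist1h2bh* and 21.5% in *Hist1h2bl*.

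The ratio varied by a median coefficient of 5.97% over the 2 tested H1 genes, 9.08% over 14 H2B genes, 16.1% over 5 H4 genes and 19.9% over 9 H2A genes. For H2A genes the spread of the ratio was wider than that of FPKM itself, with a median of 12.1%. Aligned sequence was 5.88, 5.72, 5.64, 5.61 and 5.41 gigabases in QC10, QC4, QC5, QC8 and QC3, the same order as their histone sums, while QC6, with 5.68 gigabases, had the second lowest sum. The part of depth in these values was not tested. The points share a library and a denominator, so these ratios are a description.

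**Figure D5:**
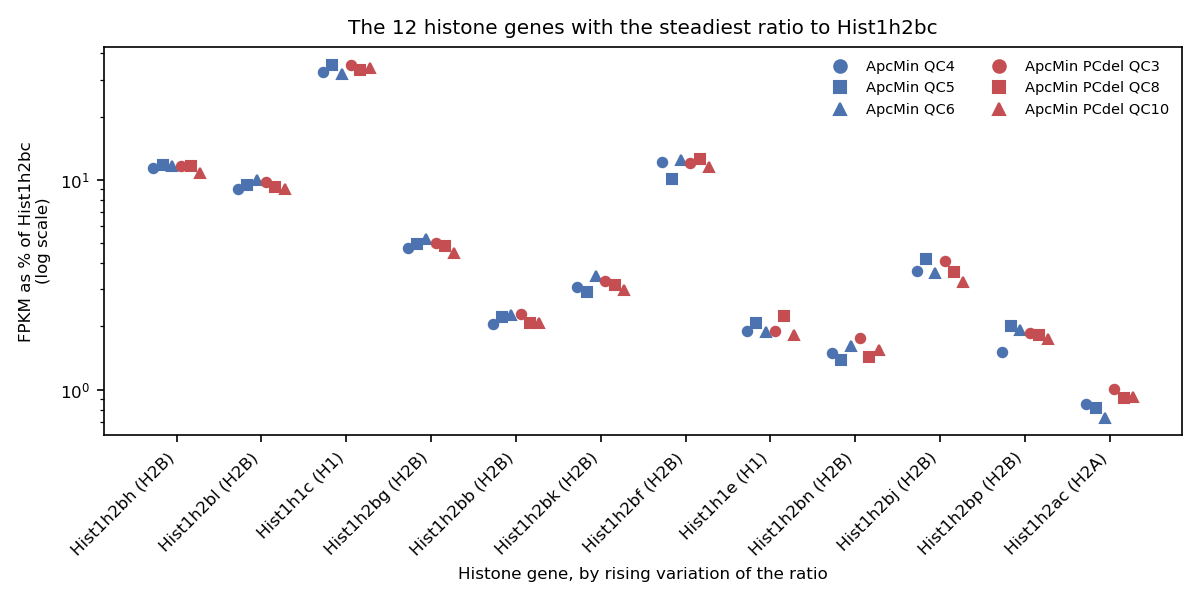
FPKM as a percent of *Hist1h2bc* in the same library, on a log axis, for the 12 histone genes whose ratio varied least, with 1 point per library (blue ApcMin, red ApcMin PCdel). *Hist1h2bh* (10.8% to 11.7%) and *Hist1h1c* (32.02% to 35.4%) held nearly level in both groups.

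No difference passed the test among genes that make or process histone mRNAs. Of 17 genes for the synthesis and processing of histone mRNA, 16 were tested, none passed an adjusted p of 0.05 in limma and none was under 0.05 unadjusted, with differences from -0.20 to 0.32 on the log2 scale and 13 of 16 higher in PCdel adenomas. *Slbp*, whose protein binds the stem-loop, was at 15.9 ± 0.346 FPKM in ApcMin and 15.99 ± 0.864 FPKM in PCdel adenomas (SD, n = 3 each). *Npat*, the coactivator of histone genes, was at 3.37 ± 0.612 and 3.76 ± 0.221 FPKM. The most abundant of this list were *Srrt*, *Sympk* and *Ncbp1*, and *Srrt* had 39.98 ± 12.02 and 33.8 ± 5.05 FPKM.

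The 11 replication-independent variant genes, which supply histones outside S phase, had 0 calls in limma, adjusted or unadjusted, with 8 lower and 3 higher. *H3f3b*, which encodes H3.3, was at 195.5 ± 24.6 and 191.9 ± 13.02 FPKM, and *H2afz*, which encodes H2A.Z, at 132 ± 22.3 and 127.8 ± 7.64 FPKM (SD, n = 3 each). All 12 histone chaperone genes and all 20 S phase genes tested had 0 calls in limma, adjusted or unadjusted, with medians of 0.04 and 0.03 on the log2 scale, beside 0.04 over all genes. *Pcna*, the DNA polymerase clamp, was at 94.7 ± 9.44 and 92.1 ± 7.19 FPKM, and *Top2a*, which untangles DNA in dividing cells, at 55.3 ± 11.9 and 55.7 ± 6.18 FPKM. The summed FPKM of the S phase genes was 533, 500 and 407 in QC4, QC5 and QC6 and 496, 480 and 478 in QC3, QC8 and QC10. QC10, which had the highest histone sum, was also the highest in the summed variant genes (881 FPKM) but not in S phase genes.

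*Hist1h2bc*, *Hist1h1c* and *Hist2h2be* are histone genes with polyadenylated forms described in differentiated cells. Their sum was 186, 185 and 157 FPKM in ApcMin and 132, 159 and 216.5 FPKM in PCdel libraries, which overlapped, and 0 of the 3 had an adjusted or unadjusted call in limma. Transcripts annotated with a poly(A) signal in their last 40 nucleotides were those of 17 histone genes, with a median level of 1.46 FPKM, against 0.821 FPKM for the other 53. The 53 include *Hist1h2bc*, the most abundant of all, with a mean of 127 FPKM, while *Hist1h1c* and *Hist2h2be* are among the 17. In all annotated transcripts, counted per transcript and not per gene, 32.6% carry such a signal.

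Markers of other cell types were set beside these values. The 4 fibroblast markers were all higher in PCdel adenomas, with sums of 132 to 198 FPKM in ApcMin and 177 to 278 FPKM in PCdel libraries. For 2 of them (*Pdgfra* and *Dcn*) the groups did not overlap, beside 7.54% of all genes tested. All 4 smooth muscle, 3 T cell and 4 myeloid markers were higher as well, beside 63.1% of all genes. All 3 enterocyte and 5 erythroid markers were lower, and 2 of 3 B and plasma cell markers were higher. Sums of the 5 erythroid markers ran from 505 to 1932 and from 209 to 930 FPKM, and those of the 3 enterocyte markers from 5938 to 13408 and from 5353 to 8996 FPKM. The sums for smooth muscle, T cell, B and plasma cell and myeloid markers overlapped between the groups as well. No marker passed an adjusted p of 0.05 in limma, and their part in the histone values was not tested.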

How the data were processed

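RNA-seq of small intestinal adenomas was read from 6 deposited tables, 1 per mouse. The study's methods name the TruSeq RNA kit, CLC Genomics Workbench and a MatLab normalization whose settings are not given, and the program and annotation behind the tables are not given in the sources used here. The authors deposited FPKM, scaled for length and library, TPM, scaled to the same sum in each library, and mean coverage, which is not scaled and served only for depth. Gene positions match GRCm38.

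FPKM was summed per gene. The 14240 genes whose FPKM averaged 1 or more were compared with limma 3.58.1 in R 4.3.3 (lmFit, eBayes with trend) on log2(FPKM + 1), which understates changes of low genes, with Benjamini-Hochberg adjustment at 0.05. For single genes the libraries were permuted (exact, two-sided). Sums over genes had no test. Shared 31-mers, stem-loops and transcript lengths came from GENCODE M21 (68 histone genes matched by identifier, 2 by symbol), with Python 3.11.15, and promoters from RefSeq. The scripts were tested on simulated data. As the tables hold no counts, counting intervals were not derived.

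The histone genes and all lists were chosen with earlier results of these data known. Named were histone genes past the threshold or with an unadjusted p under 0.05, the 20 most abundant, those of Hist2, Hist3 and Hist4, and relatives of *Hist2h2aa1*. Other genes named are examples from the lists, chosen after their values were seen where they are not among the 3 most abundant of a list. The alternatives were no filter, a minimum of 5 FPKM, a pseudocount of 0.1, TPM, quantile normalization, median centring, no trend, array weights, each library left out, and sums without the most abundant gene. The length-weighted sums and the sum over wider relatives were added after the data were seen.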

Additional observations from a re-analysis of the deposited data

How the results depend on the processing

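*Hist2h2aa1* passed an adjusted p of 0.05 in limma under each of 14 alternatives, with log2 differences between 3.62 and 6.95 (the latter with a pseudocount of 0.1) and an adjusted p between 0.000387 and 0.0356, and the number of histone genes past the threshold stayed at 1 in all 14. These alternatives reuse the same 6 libraries and are no independent support. The number of all genes past it was 2, and 1 with no filter on low values, 3 when arrays were weighted by quality, 1 with median centring and between 1 and 5 with each library left out. Histone genes higher in PCdel adenomas numbered 11 of 32, 24 of 68 with no filter and 1 of 8 at a minimum of 5 FPKM (fewer genes tested in the latter). Of 32 genes, 16 were higher with TPM, 7 with quantile normalization, and between 8 and 24 with each library left out. Differences changed sign for *Hist1h1c* with TPM (0.0053) and, with each library left out, for *Hist1h2bc* (-0.29 to 0.072) and *Hist1h1c* (-0.24 to 0.090), and the cause was not tested. *Hist1h2br*, *Hist1h2bq*, *Hist2h2be* and *Hist3h2a* kept their direction and passed under no alternative.

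Without *Hist2h2aa1*, their most abundant gene, the log2 ratio of summed FPKM was 0.15 for Hist2 (1.63 with it), 0.13 for H2A (0.72 with it) and -0.13 for its closest relatives. The sum of *Hist2h2aa1* and these relatives had a log2 ratio of 1.41, which was 0.36 when weighted by length, 0.34 with *Hist2h3c1* added and 0.24 over all relatives sharing at least 10% (plain FPKM). In the latter 3, long or abundant relatives weigh more by construction. The sums of Hist1, Hist3, Hist4, H1, H2B, H3 and H4 moved by less than the spread between libraries under every alternative tried, but over the fits that left out a library the log2 ratio crossed 0 for Hist1 (-0.27 to 0.06), H1 (-0.25 to 0.10), H2B (-0.28 to 0.06), H3 (-0.28 to 0.12) and H4 (-0.37 to 0.06), and ran from 0.04 to 0.98 for Hist3. With each library left out, Hist2 ranged from 1.499 to 1.81, H2A from 0.63 to 0.87 and the relatives' sum from 1.29 to 1.51. Median centring lowered all log2 differences by 0.05 at the median of all genes (a shift of -0.05).

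No paired analysis was possible because the replicate numbers are not shared between the groups. The tables hold no counts, so the floor below a listing at 0 is unknown, and 3 mice a group cannot give an exact p below 0.1.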
